A study of Mus musculus with 12 samples.

Results

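Small nuclear RNA (snRNA) genes held 496 of the 124941 clusters, short intervals of crosslinked reads, that were listed for 3 Flag-tagged RNA-binding proteins in mouse N2A cells. A cluster was counted where its centre lay in a gene whose RefSeq biotype is snRNA on GRCm38.p6, the build also called mm10. The Rbm38 table gave 129 of these clusters, the table of Puf60 with exon 5 gave 180 and that of Puf60 without exon 5 gave 187. They lay in 203 of the 1004 annotated snRNA genes, of which 111 had a cluster in all 3 tables, 56 in 2 and 36 in 1.

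SnRNAs are short noncoding RNAs that work as ribonucleoproteins in the nucleus. The U1, U2, U4, U5 and U6 RNAs form the core of the major spliceosome, in which U1 recognises the 5′ splice site and U2 the branch point, and U11 and U12 take those roles in the minor spliceosome. U7 guides the 3′ end cleavage of replication-dependent histone mRNAs, and 7SK RNA holds the elongation factor P-TEFb inactive. Rbm38 binds RNA through an RNA recognition motif and its gene is induced by p53, while Puf60 resembles U2af2 and contacts pyrimidine-rich tracts at the ends of introns. The mouse genome carries many near-identical copies of snRNA genes, and copies of pseudogene type cannot be told from active ones by their numbered names.

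N2A is a mouse neuroblastoma line, engineered here with the Flp-in system so that a doxycycline-inducible transgene expresses the tagged protein at 1 µg/ml of the drug. Rbm38 lines were induced for 24 h, Puf60 with exon 5 for 48 h in its CLIP libraries, and Puf60 without exon 5 for 24 h. Each protein had 3 iCLIP libraries made with an anti-Flag antibody after 150 mJ/cm2 of ultraviolet light, and 1 size-matched input of the same line induced for 24 h and made without the antibody. Between the Puf60 tables, the effect of the exon cannot be told apart from that of the longer induction. Within the table of Puf60 with exon 5, CLIP at 48 h was set against input at 24 h. Its folds and calls, and any comparison of them with Rbm38, thus carry that difference in induction as well. The antibody takes the tagged transgene product and not the cells' own protein, and the labels do not say whether replicates came from separate cultures. The deposited values compare CLIP with input per cluster and give no value per library, so no replicate spread could be shown.

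Of the 203 snRNA genes, 2 lie whole in sequence available here (RefSeq, GRCm38.p6), and both are printed 5′ to 3′ because they show where in the RNA a cluster falls. The first is Rnu7, the named gene whose cluster had the highest fold, at chr6:124741225-124741286 on the minus strand. Its capitals mark AATTTGTCT at positions 21 to 29, the letters that open the element to which the U7-specific Sm ring binds. The cluster covered positions 1 to 51.
Rnu7: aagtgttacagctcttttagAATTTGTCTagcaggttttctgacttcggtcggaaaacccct
The second is the numbered gene LOC115489800 at chr3:96450446-96450611 on the plus strand, 166 nt long, which falls within the length of the named U1 genes (164 to 166 nt). Its capitals mark ACTTACCTG at positions 3 to 11, the letters with which U1 RNA pairs to the 5′ splice site consensus CAGGTAAGT, and AATTTGTGG at positions 126 to 134, the Sm site letters of U1.
LOC115489800: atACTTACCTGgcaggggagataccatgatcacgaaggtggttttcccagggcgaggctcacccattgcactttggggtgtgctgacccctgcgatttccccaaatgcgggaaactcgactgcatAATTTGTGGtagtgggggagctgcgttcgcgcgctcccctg
The cluster in LOC115489800 covered positions 106 to 155, which hold the Sm site letters and not the 5′ end. Its log2 fold of CLIP over input was -0.27 for Puf60 with exon 5 and -1.66 for Puf60 without exon 5 in the authors' deposited tables, and the gene was not listed for Rbm38. The 3 motifs were searched on both strands of 32851 RefSeq windows of 300 nt around gene starts, and AATTTGTCT and AATTTGTGG share their first letters. AATTTGTCT occurred in 0.286% of windows, AATTTGTGG in 0.167% and ACTTACCTG in 0.265%. A match is a description of the letters and not a mapped binding site.

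Most snRNA clusters lay below their input: the log2 fold of CLIP over input was under 0 in 115 of 129 for Rbm38, 133 of 180 for Puf60 with exon 5 and 152 of 187 for Puf60 without exon 5. A cluster was called enriched at an adjusted p under 0.05 in the authors' deposited table, and called depleted where the Benjamini-Hochberg adjustment of 1 minus the deposited p was under 0.05. For Rbm38, 3 of 128 snRNA clusters with a p-value were enriched (2.34%), against 51.2% of all its clusters, and 100 (78.1%) were depleted, against 11.2%. For Puf60 with exon 5, 12 of 179 were enriched (6.70%), against 39.3% of all clusters, and 90 (50.3%) were depleted, against 26.3%. For Puf60 without exon 5, 14 of 185 were enriched (7.57%), against 36.2%, and 119 (64.3%) were depleted, against 27.9%. The median log2 fold of CLIP over input in snRNA genes was -1.10 for Rbm38, -0.42 for Puf60 with exon 5 and -0.76 for Puf60 without exon 5. Over all clusters of the same tables it was 1.04, 0.24 and 0.11 in that order of proteins. The share of snRNA clusters called enriched was thus far under the background share in each table. The counts depend on the adjustment, since a plain Benjamini-Hochberg adjustment of the deposited p-values calls 5 for Rbm38, 24 for Puf60 with exon 5 and 17 for Puf60 without exon 5. The share of all clusters called by that adjustment is not given here. These counts, and those by length and position below, therefore have no background of their own.

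Other small RNA genes of the same tables are given for comparison. In snoRNA genes, whose products guide chemical modification of ribosomal and spliceosomal RNA, 0 of 262 clusters were enriched for Rbm38, 4 of 242 for Puf60 with exon 5 and 3 of 249 for Puf60 without exon 5, with median log2 folds of -3.19, -2.75 and -2.90. In tRNA genes 25.3%, 25.2% and 1.21% of clusters were enriched, with medians of -0.47, -0.78 and -1.88. The snRNA medians lay above the snoRNA medians in every table. They lay above the tRNA medians for both Puf60 isoforms and below for Rbm38.

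Among the 17 snRNA genes that carry a name rather than a number, 14 held a cluster. The U2 gene Rnu2-10, the U6 gene Rnu6 and the U3 gene Rnu3b3 held none by their centre, and no gene was named U4. The numbered genes, 987 in all, held clusters in 189. RefSeq names give them no RNA class, so they are described by annotated length alone, in ranges chosen after the data were seen, and a gene at a limit shared by a pair of ranges is counted in the lower one.

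U1 RNA base-pairs with the 5′ splice site at the first step of spliceosome assembly. In the authors' deposited tables the cluster at the 5′ end of Rnu1b1 had log2 folds of -2.04 for Rbm38, 0.03 for Puf60 with exon 5 and 0.13 for Puf60 without exon 5. Its copy Rnu1b2 had -2.03, 0.03 and 0.13 in the authors' deposited tables. A further cluster without exon 5 had 0.00, with no p-value, in Rnu1b1 and -0.36 in Rnu1b2 in the authors' deposited table. Values of single copies are uncertain, since whether reads that map to several copies were kept is not given in the sources used here. In the authors' deposited tables, Rnu1b6 had -0.48 with exon 5 and -1.64 without it, in a cluster centred 128.5 nt from its 5′ end. Rnu1a1 had -1.77 without exon 5 at 158.5 nt in the authors' deposited table. These positions, and the 5′ end of Rnu1b1, follow the strand inferred from cluster starts. No named U1 cluster was enriched by the adjusted p in the authors' deposited tables. For Puf60 without exon 5 this rests on an adjusted p of 1 beside a p of 1.01e-10 in Rnu1b1 and 4.46e-11 in Rnu1b2 in the authors' deposited table, and a plain Benjamini-Hochberg adjustment calls both 5′ clusters enriched. Both Rbm38 clusters in named U1 genes were depleted, as were 0 of 3 for Puf60 with exon 5 and 2 of 5 for Puf60 without exon 5.

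U5 RNA aligns the exon ends for their joining, and the gene named for it here is Rnu5g (chr9:65201726-65201841, 116 nt). Its cluster had log2 folds of -5.23 for Rbm38, 0.11 for Puf60 with exon 5 and -0.61 for Puf60 without exon 5, as listed in the authors' deposited tables. Its Rbm38 value was the lowest of all 129 Rbm38 clusters in snRNA genes. The 8 numbered genes of 110 to 120 nt with an Rbm38 cluster ranged in log2 fold between -5.10 and -1.77, and all were depleted. For Puf60 the 10 clusters of that length, Rnu5g included, lay between -0.79 and 0.36 with exon 5 and between -1.42 and 0.41 without it, and none was enriched by the deposited adjusted p. Rnu5g with exon 5 had a p of 5.26e-07 beside an adjusted p of 1 in the authors' deposited table, and a plain Benjamini-Hochberg adjustment calls it enriched. The Rbm38 and Puf60 ranges of these clusters did not overlap, whichever isoform was taken.

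The RNAs of the minor spliceosome followed the same order. Rnu11 (chr4:132270079-132270186) had log2 folds of -3.34 for Rbm38, 0.03 for Puf60 with exon 5 and -0.46 for Puf60 without exon 5 in the authors' deposited tables. Rnu12 (chr15:83149645-83149794) had -2.47, -0.21 and -0.71 in the authors' deposited tables. All of these were depleted except Rnu11 with exon 5. In both genes the cluster covered the whole RNA and reached past both its ends, so no position within it could be given.

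Of the named RNAs, U7 alone was called enriched by the deposited adjusted p, while a plain Benjamini-Hochberg adjustment adds Rnu5g with exon 5 and Rnu1b1 and Rnu1b2 without it. The Rnu7 cluster, printed above, had log2 folds of -1.33 for Rbm38, 0.97 for Puf60 with exon 5 and -0.05 for Puf60 without exon 5 in the authors' deposited tables. It was depleted for Rbm38, enriched for Puf60 with exon 5 with an adjusted p listed as 0 in the authors' deposited table, and neither for Puf60 without exon 5. Its centre lay 0.5 nt inside the gene, and about as much of the cluster lies upstream of the annotated start as in the gene.

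Rn7sk, the 7SK gene (chr9:78175302-78175633), had log2 folds of -2.39 for Rbm38, -1.38 for Puf60 with exon 5 and -1.44 for Puf60 without exon 5 in the authors' deposited tables, and was depleted in each. U3 RNA, which acts in ribosomal RNA processing and is usually counted as a snoRNA, ran in the other direction between proteins. Rnu3a (chr10:40258468-40258679) had -1.90 for Rbm38, -3.55 for Puf60 with exon 5 and -4.26 for Puf60 without exon 5 in the authors' deposited tables. Rnu3b2 had -1.14, -1.50 and -2.34, and Rnu3b4 had -1.10, -1.47 and -2.80, in the authors' deposited tables. Rnu3b1 was listed for Puf60 only, at -2.18 with exon 5 and -2.90 without it in the authors' deposited tables. Snord73b, a snoRNA gene by name, had -1.37, -2.43 and -2.98 in the authors' deposited tables. Every U3 and Snord73b cluster was depleted, and the snRNA biotype thus holds RNAs of the snoRNA kind. Leaving these genes out, a choice made after seeing the data, left the enriched counts at 3, 12 and 14.

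**Figure D1:**
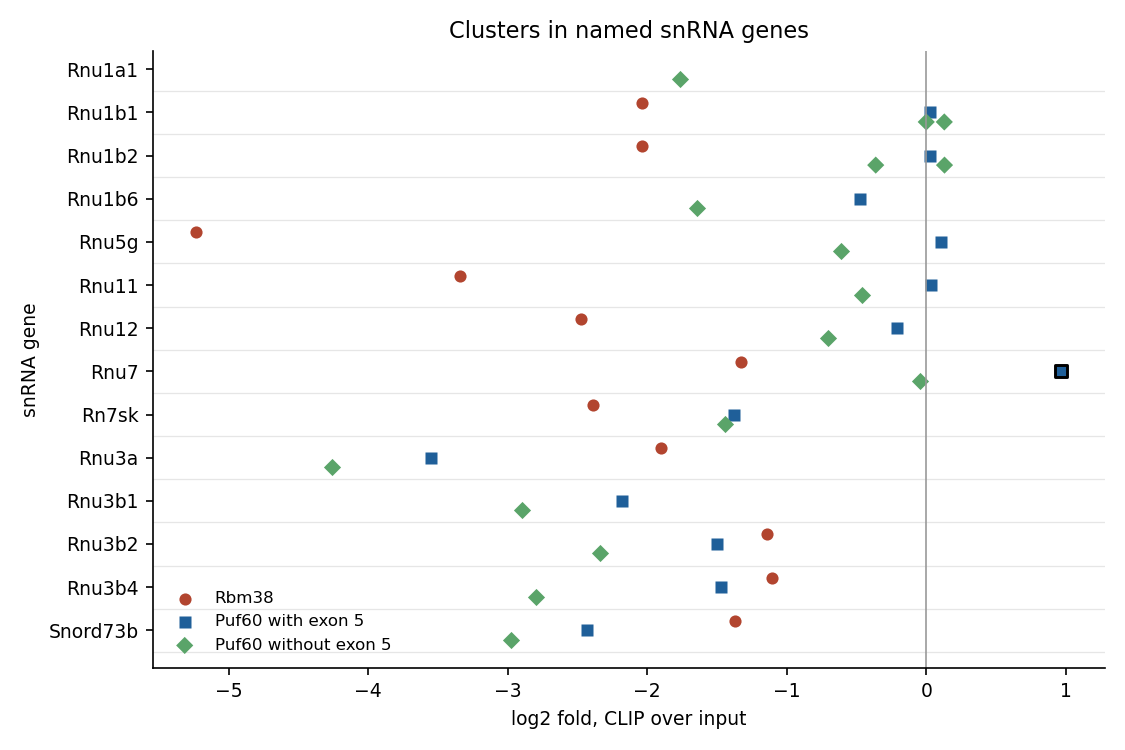
Log2 fold of CLIP over input (x axis) for each cluster in a named snRNA gene (rows), with circles for Rbm38, squares for Puf60 with exon 5 and diamonds for Puf60 without exon 5; a black outline marks the enriched cluster. Rnu7 with exon 5 at 0.97 is the outlined one, Rnu5g for Rbm38 lies farthest left at -5.23, and the 4 U3 genes are lowest for Puf60 without exon 5.

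The enriched clusters concentrated in genes of 150 to 170 nt, which include all named U1 genes. In that length range 2 of 36 tested clusters were enriched for Rbm38, 7 of 32 for Puf60 with exon 5 and 13 of 33 for Puf60 without exon 5. The medians of the log2 fold were -1.26, 0.03 and 0.00. In the snRNA genes of all other lengths 1 of 92, 5 of 147 and 1 of 152 clusters were enriched, with medians of -1.07, -0.57 and -0.82. The 39.4% enriched in this range for Puf60 without exon 5 was near the 36.2% background of its table, and the 21.9% with exon 5 was below the 39.3% of its table. Numbered genes of exactly the length of the named U1 genes, 164 to 166 nt, gave 1 of 28, 6 of 24 and 10 of 24 enriched clusters. A plain Benjamini-Hochberg adjustment gives 3, 12 and 15 enriched clusters at 150 to 170 nt and 2, 12 and 2 at all other lengths. The difference between length groups is a description and was not tested.

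Genes of 100 to 110 nt, among which the named Rnu6 and Rnu11 fall, gave the largest group of clusters in each table and few calls. They held 54 clusters for Rbm38, 106 for Puf60 with exon 5 and 112 for Puf60 without exon 5, of which 1, 4 and 0 were enriched. Their medians were -0.71, -0.57 and -0.80. Of the 704 numbered genes of this length 124 held a cluster, against 32 of 116 at 150 to 170 nt, 9 of 27 at 110 to 120 nt and 0 of 72 under 100 nt. Genes of 120 to 150 nt had 11 clusters in each table, none enriched, with medians of -2.47, -0.23 and -0.94. Among them Gm24265 and Gm24407, both 141 nt and on chromosome 5, had -4.72 and -4.97 for Rbm38, -0.14 and -0.23 for Puf60 with exon 5, and -0.94 and -0.91 for Puf60 without exon 5 in the authors' deposited tables. These were chosen after their values were seen. Genes of 170 to 200 nt, the range of the named U2 gene, had 12, 13 and 12 clusters, of which 0, 0 and 1 were enriched, with medians of -1.99, -0.75 and -0.94. A plain Benjamini-Hochberg adjustment gives 1, 8 and 1 enriched clusters at 100 to 110 nt, 1, 0 and 0 at 120 to 150 nt and 0, 2 and 1 at 170 to 200 nt.

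**Figure D2:**
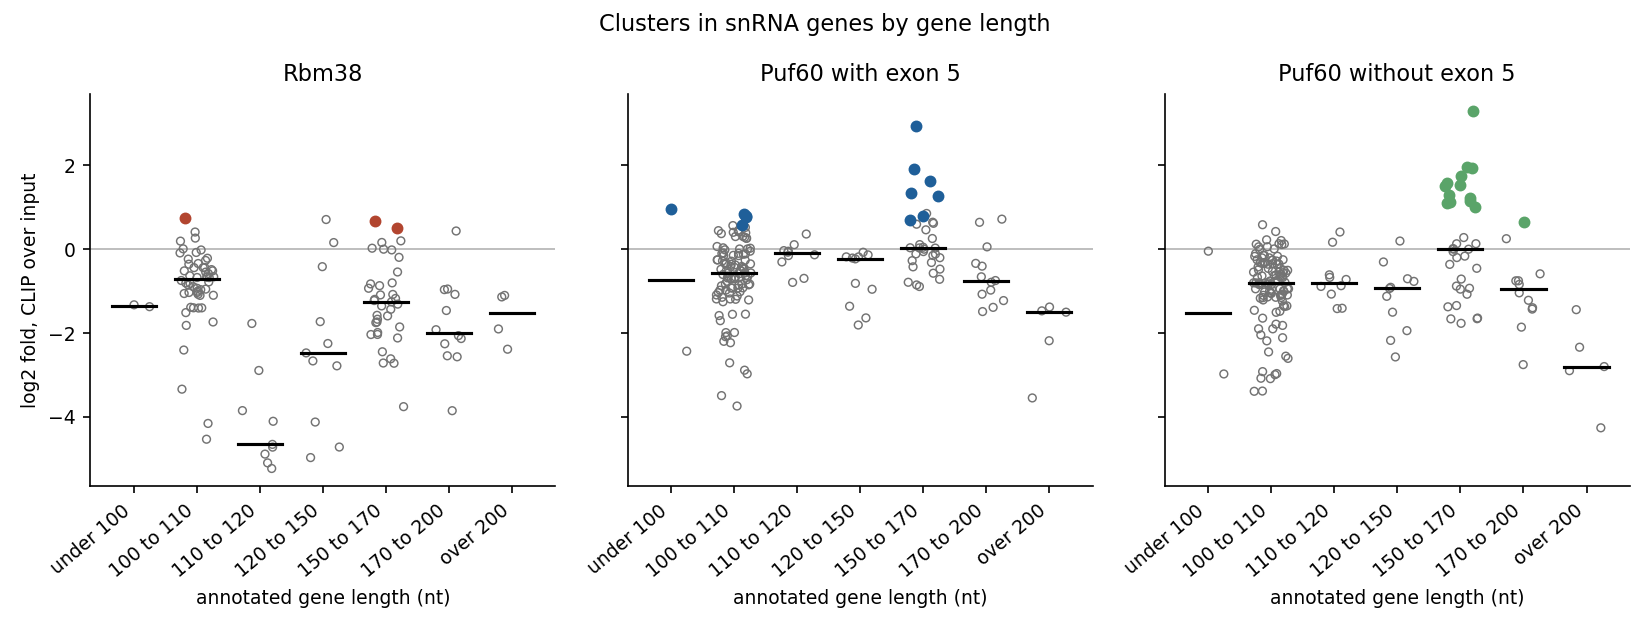
Log2 fold of CLIP over input (y axis) for all snRNA clusters by annotated gene length (x axis, nt), 1 panel per protein; filled points are enriched, open points are not, and bars are medians. Enriched points gather at 150 to 170 nt for both Puf60 isoforms (7 and 13 clusters), and the median at 110 to 120 nt is -4.66 for Rbm38, against -0.10 for Puf60 with exon 5 and -0.80 for Puf60 without exon 5.

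An enriched cluster occurred in 21 of the 203 snRNA genes with a cluster, and 14 of the 21 were 150 to 170 nt long. By table it was 3 of 123 genes for Rbm38, 12 of 177 for Puf60 with exon 5 and 14 of 181 for Puf60 without exon 5. This is far under the 74.8%, 56.6% and 54.7% of all genes with a cluster in the same tables. Of the 21, 7 were enriched for both Puf60 isoforms, 5 for Puf60 with exon 5 alone, 7 for Puf60 without exon 5 alone and 2 for Rbm38 alone. The 7 genes enriched for both isoforms all fall in the range of 150 to 170 nt, and 1 of them, LOC115488077, was enriched for Rbm38 as well. Gm25587 (chr10:105040273-105040438) had the highest Puf60 folds, with -2.72 for Rbm38, 2.94 for Puf60 with exon 5 and 3.29 for Puf60 without exon 5 in the authors' deposited tables. Its adjusted p was 2.12e-102 with exon 5 and 1.89e-73 without it in the authors' deposited tables. LOC115490478 (chr6:53433974-53434137, within the body of Creb5) had -1.67 for Rbm38, 1.92 with exon 5 and 1.95 without it, the last 2 with an adjusted p listed as 0, in the authors' deposited tables. Gm23686 (chr3:18177462-18177625, within Cyp7b1) had -1.08 for Rbm38, 1.62 with exon 5 and 1.75 without it in the authors' deposited tables. In these 3 genes both isoforms were on the positive side and Rbm38 on the negative side. The remaining 3 genes enriched for Puf60 alone were Gm26110, Gm23680 and Gm24405, at -0.19, -0.87 and -0.93 for Rbm38, 1.34, 1.26 and 0.80 with exon 5, and 1.29, 1.09 and 1.15 without it in the authors' deposited tables.

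Genes called for Puf60 without exon 5 alone were again mostly 150 to 170 nt long. They were Gm25682, Gm23330, Gm22739, Gm23737, Gm23511, Gm22513 and the 183-nt Gm24890. In that order they had log2 folds with exon 5 of 0.64, 0.25, 0.62, 0.05, 0.85, 0.46 and 0.72, as the authors' deposited tables give them. Without exon 5 the authors' deposited tables give 1.59, 1.53, 1.51, 1.23, 1.12, 1.01 and 0.65. All were positive in both tables, and 5 of the 7 had a deposited p under 0.05 with exon 5 beside an adjusted p of 1. Such pairs of values occurred at 2 snRNA clusters for Rbm38, 15 for Puf60 with exon 5 and 4 for Puf60 without exon 5, and how the authors' adjustment gives them is not stated. The calls therefore do not show that these genes differ between the isoforms.

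Genes called for Puf60 with exon 5 alone were shorter. Besides Rnu7 they were Gm24311, Gm23731, Gm24538 and Gm26203, which are 102 to 107 nt long, and their log2 folds were 0.85, 0.79, 0.77 and 0.57 in the authors' deposited table. Without exon 5, Gm24311 had -1.01, Gm23731 -0.66 and Gm26203 0.42 in the authors' deposited table, and Gm24538 was not listed. Gm26203 without exon 5 had a deposited p of 0.0028 but was not called by the adjusted p. Its call therefore does not show a difference between the isoforms. The Rbm38-only genes were Gm24316 (105 nt) at 0.74, with an adjusted p of 0.00548, and Gm26264 (159 nt) at 0.51, with an adjusted p of 0.0383, in the authors' deposited table. No Rbm38 cluster in an snRNA gene was both enriched and above a log2 fold of 1.

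Of the 19 genes enriched in either Puf60 table, 18 also had an Rbm38 cluster, and the highest Rbm38 fold was below 0 in 17 of them. Rbm38 folds below 0 were usual, at 115 of 129 clusters in all snRNA genes and 31 of 37 at 150 to 170 nt. The count is thus not particular to the genes enriched for Puf60. Many of the enriched genes sit inside other genes. Enriched clusters lay within another gene body in 1 of 3 cases for Rbm38, 9 of 12 for Puf60 with exon 5 and 11 of 14 for Puf60 without exon 5, against 65 of 129, 86 of 180 and 88 of 187 snRNA clusters in all. Where the host lies on the same strand, reads from its transcript and from the snRNA copy cannot be told apart. Which hosts do so is not known, since gene strand is not given in the reference used here. In no other gene body lay 2, 3 and 3 enriched clusters. Outside the snRNA gene itself, no other enriched cluster lay within 3000 nt of the gene in any of these cases, and no other cluster of either kind in 3, 9 and 13 of them.

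Within genes of 150 to 170 nt the enriched clusters lay towards the 5′ end, on the strand inferred from the grid of cluster starts. Gene strand is not given in the reference used here, so a cluster antisense to its gene would have the ends swapped. Centres within 75 nt of the 5′ end, a limit set after seeing the data, belonged to 22 clusters for Rbm38, 17 for Puf60 with exon 5 and 17 for Puf60 without exon 5. Of these 2, 6 and 12 were enriched (3, 10 and 14 by a plain Benjamini-Hochberg adjustment), and their median log2 folds were -1.13, 0.62 and 1.15. The clusters centred farther in numbered 15, 16 and 18, of which 0, 1 and 1 were enriched (0, 2 and 1 by that adjustment), with medians of -1.58, -0.18 and -0.91. The exception was Gm25587, whose cluster was centred at 77.5 nt with exon 5 and 102.5 nt without it. The median centre of enriched clusters lay 11 nt from the 5′ end for Rbm38, 20.5 nt for Puf60 with exon 5 and 35.5 nt for Puf60 without exon 5, and that of other clusters at 54.5, 97.5 and 119 nt. By the deposited adjusted p, the enriched share within 75 nt lay below the background for Rbm38 (51.2% of all clusters) and Puf60 with exon 5 (39.3%). For Puf60 without exon 5 it lay above the 36.2% of its table.

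More than 1 cluster in the same table occurred in 8 snRNA genes. The cluster nearer the inferred 5′ end had the higher log2 fold in 4 of 6 such genes for Rbm38. It did so in 3 of 3 for Puf60 with exon 5 and 6 of 6 for Puf60 without exon 5. The last count includes Rnu1b1, whose farther cluster had 0.00 with no p-value in the authors' deposited table. In LOC115488077 the cluster centred 7.5 nt from the 5′ end had log2 folds of 0.67 for Rbm38, 0.70 for Puf60 with exon 5 and 1.94 for Puf60 without exon 5, and was enriched in all 3 of the authors' deposited tables. The cluster of the same gene at 107.5 nt had -1.59, -0.12 and -1.66 in the authors' deposited tables. In Gm22513 the cluster at 43.5 nt had -1.85, 0.46 and 1.01, and the cluster at 143.5 nt had -0.02, -0.20 and -1.07, in the authors' deposited tables. In Gm25360, which is 191 nt long, the cluster at 35.5 nt had -0.95, -0.34 and 0.25, and the farther one had -3.85, -1.23 and -2.75, in the authors' deposited tables. These were the 3 genes with a pair of clusters in every table, and Rbm38 in Gm22513 was the exception to the order. Gm24924 had 0.02 at 19.5 nt and -2.72 at 119.5 nt for Rbm38, and -0.20 and -0.46 for Puf60 without exon 5, in the authors' deposited tables. For Rbm38 alone, Gm22042 had 0.20 near the 5′ end and -0.80 farther in, and Gm23238 had -1.75 and -1.31, in the authors' deposited table. The 5′ cluster of the named copies Rnu1b1 and Rnu1b2 lay in the same region, with folds near 0 for both isoforms, and without exon 5 its call depends on the adjustment, as given above.

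**Figure D3:**
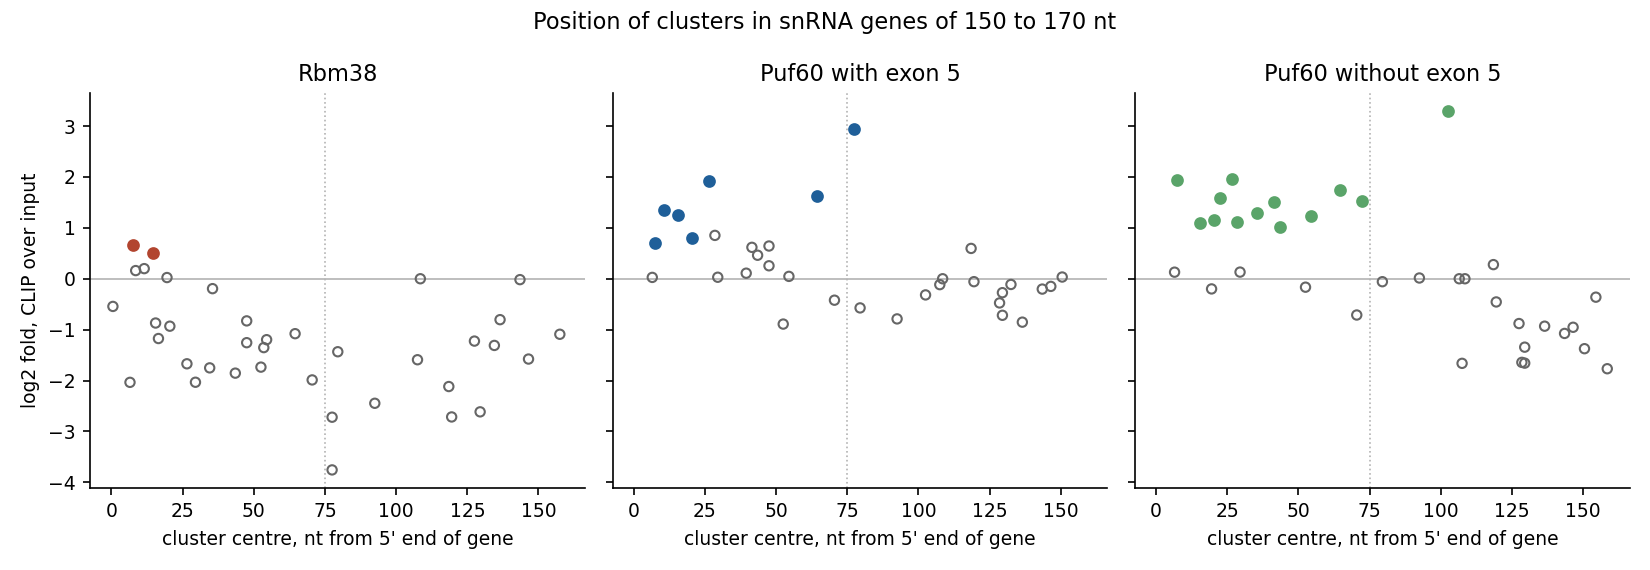
Log2 fold of CLIP over input (y axis) against the distance of the cluster centre from the inferred 5′ end (x axis, nt) in snRNA genes of 150 to 170 nt; filled points are enriched, and the dotted line marks 75 nt. For Puf60 without exon 5, 12 of the 13 enriched clusters lie left of the line.

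The Puf60 isoforms were set side by side at 166 matched snRNA clusters, pairs that overlap each other most. The log2 fold was higher with exon 5 in 110 pairs and lower in 55, with a median difference of 0.28, against 0.10 over the 20187 matched clusters of all genes. At 150 to 170 nt the median difference was -0.01, with exon 5 higher in 15 pairs and lower in 16. In the other 134 pairs it was 0.36, with exon 5 higher in 95 and lower in 39. At 110 to 120 nt the fold with exon 5 was higher in 9 of 10 pairs (median 0.70) and in the U3 genes in 4 of 4 (median 0.78). Over the 18 pairs enriched in at least 1 of the Puf60 tables the median difference was -0.20, the opposite sign. Of these, 7 were called in both tables, 4 with exon 5 alone and 7 without it alone. The calls rest on the same folds, so that sign is not separate from the choice of pairs. Without values per library none of these differences could be tested.

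Among pairs enriched in at least 1 Puf60 table, the largest differences below 0 with exon 5 were at Gm23330 (-1.28), LOC115488077 (-1.23), Gm23737 (-1.18), Gm25682 (-0.95) and Gm22739 (-0.89). The largest above 0 were at Gm24311 (1.85), Gm23731 (1.44), Rnu7 (1.02), Gm23680 (0.17) and Gm26203 (0.15). All 5 of the first kind are 150 to 170 nt long, and 1 of the 5 of the second kind is. At that length the called pairs were 7 in both tables, 0 with exon 5 alone and 6 without it alone. At other lengths they were 0, 4 and 1. The 10 pairs were drawn from these, so their lengths are not separate from the calls. Of the 10 pairs, those of Gm23330, Gm25682 and Gm23731 differ in extent between the tables, so their folds cover unequal intervals.

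Rbm38 and Puf60 without exon 5, induced for the same time, shared 119 matched snRNA clusters. The Rbm38 fold was higher in 39 and lower in 79, with a median difference of -1.08, against 0.92 over the 16078 matched clusters of all genes. Against Puf60 with exon 5 it was higher in 29 of 121 pairs and lower in 91, with a median of -1.08, against 0.64 over 14851. There the CLIP libraries also differ in induction time, 24 h for Rbm38 and 48 h for Puf60. By length the difference from Puf60 without exon 5 had medians of -3.69 at 110 to 120 nt (9 pairs, none higher), -2.05 at 150 to 170 nt (32 pairs, 4 higher) and 0.02 at 100 to 110 nt (51 pairs, 27 higher). In 3 U3 pairs it was 1.70, with Rbm38 higher in each. The median difference was thus most negative at 110 to 120 nt, close to 0 at 100 to 110 nt, and of the opposite sign in U3. At 100 to 110 nt the named Rnu6 held no cluster. Rnu11, also of that length, had -3.34 for Rbm38 and -0.46 for Puf60 without exon 5 in the authors' deposited tables.

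Among enriched pairs the widest gaps of Rbm38 below Puf60 without exon 5 were at Gm25587 (-6.01), LOC115490478 (-3.62), Gm22513 (-2.87), Gm25682 (-2.85) and Gm23686 (-2.83). Below Puf60 with exon 5 they were at Gm25587 (-5.66), LOC115490478 (-3.60), Gm23686 (-2.70), Rnu7 (-2.30) and Gm23680 (-2.13). Rbm38 was above Puf60 without exon 5 at Gm24316 alone among these pairs (0.62), and above Puf60 with exon 5 at Gm24316 (1.99) and Gm26264 (0.40). The pairs were kept by calls on the same folds, and 15 of 17 and 12 of 15 were called for Puf60 alone. Against Puf60 without exon 5, the pairs of Gm25587 and Gm25682 differ in extent, so their folds cover unequal intervals. The same holds for Gm26264 against Puf60 with exon 5.

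**Figure D4:**
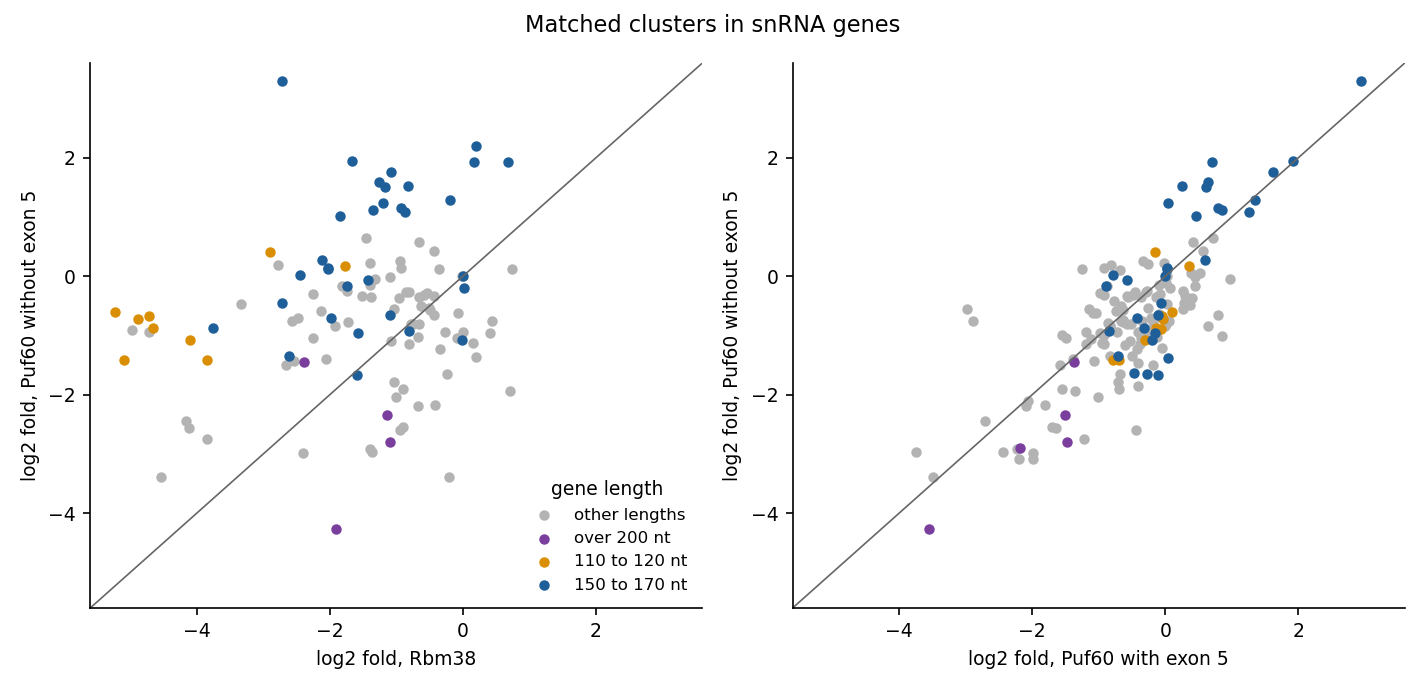
Log2 folds of matched snRNA clusters, with Rbm38 (left) or Puf60 with exon 5 (right) on the x axis and Puf60 without exon 5 on the y axis; colours give the gene length and the line marks equal values. Points of 110 to 120 nt lie above the line on the left in all 9 pairs, and Gm25587 is the highest point in both panels.

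The genes of proteins that work with snRNAs are given beside the snRNA genes, by gene and by cluster. Of 45 genes for major spliceosomal snRNP proteins, 37 of the 38 with an Rbm38 cluster held an enriched one (97.4%), against 74.8% of all genes with a cluster. For Puf60 with exon 5 it was 17 of 31 (54.8%), against 56.6%, and for Puf60 without exon 5 14 of 34 (41.2%), against 54.7%. Counted by cluster, 90 of 182 were enriched for Rbm38 (49.5%), 59 of 133 for Puf60 with exon 5 (44.4%) and 66 of 181 for Puf60 without exon 5 (36.5%), against 51.2%, 39.3% and 36.2% of all clusters in the same tables. The highest for Rbm38 were Snrpg, an Sm ring protein, at 6.03, the Sm protein gene Snrpd1 at 5.66 and the U2 subunit gene Sf3b3 at 5.28 in the authors' deposited table. The highest with exon 5 were the U5 GTPase gene Eftud2 at 5.19, the tri-snRNP factor gene Usp39 at 5.01 and Sf3b3 at 4.74, and without exon 5 Eftud2 at 4.85, the U1 protein gene Snrnp70 at 4.82 and Sf3b3 at 4.70, in the authors' deposited tables. For Rbm38 the share of the list thus lay above the background by gene and slightly below it by cluster.

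The gene shares of the other lists stand against the same 74.8%, 56.6% and 54.7% of all genes with a cluster, and rest on few genes. For the proteins of the minor spliceosome, 2 of 3 genes with a cluster held an enriched one for Rbm38, 2 of 4 for Puf60 with exon 5 and 2 of 3 for Puf60 without exon 5, from 6 of 9, 4 of 10 and 5 of 10 clusters. In each table these were Zrsr2, which recognises the minor 3′ splice site, at 3.01, 3.35 and 2.63, and the U11/U12 protein gene Zcrb1 at 1.39, 2.14 and 2.60, in the authors' deposited tables. The U7 and histone mRNA list gave 1 of 1, 1 of 2 and 2 of 3 genes, from 6 of 6, 1 of 4 and 2 of 7 clusters. Slbp, which binds the histone stem-loop, had 4.45 for Rbm38, and Lsm11, a U7-specific Sm protein gene, had 4.03 with exon 5 and 3.90 without it in the authors' deposited tables. Casp8ap2, a factor for histone mRNA processing, had 3.34 without exon 5 in the authors' deposited table. Lsm11 thus held enriched clusters for both isoforms, while the U7 RNA itself was enriched with exon 5 alone.

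The list for 7SK and P-TEFb gave 5 of 6, 2 of 3 and 3 of 3 genes, from 27 of 35, 8 of 14 and 8 of 25 clusters. The last is 32.0% of clusters, under the 36.2% of its table. Ccnt1, a cyclin of P-TEFb, had 4.62 for Rbm38 and 0.74 for Puf60 without exon 5, and Hexim1, the inhibitor bound to 7SK, had 3.14 for Rbm38, in the authors' deposited tables. Ccnt2, the other cyclin, had 3.49, 4.49 and 5.29, and the kinase gene Cdk9 had 3.83 with exon 5 and 4.08 without it, in the authors' deposited tables. Of 36 genes for snRNA transcription, processing and assembly, 11 of 14, 10 of 13 and 12 of 14 with a cluster held an enriched one (78.6%, 76.9% and 85.7%). By cluster it was 31 of 50, 16 of 26 and 24 of 39. Ncbp1, of the cap-binding complex, had 5.41, Snapc3, of the snRNA promoter complex, 4.52, and Ssb, which binds RNA polymerase III transcripts, 4.36 for Rbm38 in the authors' deposited table. Ints13 and Ints6, of the Integrator complex that cleaves snRNA 3′ ends, had 5.23 and 4.51 with exon 5 and 4.29 and 4.96 without it, in the authors' deposited tables. Smn1, of the complex that loads Sm rings, had 3.81 with exon 5, and Ints1 had 4.65 without it, in the authors' deposited tables. A gene with many clusters has more chances to hold an enriched one, so the shares by gene are descriptions.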

How the data were processed

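RNA bound to Flag-tagged Rbm38, Puf60 with exon 5 and Puf60 without exon 5 was measured by iCLIP in N2A cells, with 3 CLIP libraries and 1 size-matched input each, per the labels' protocols. Each of the 3 deposited tables lists clusters with the authors' log2 fold of one protein, its p-value and its adjusted p-value, per the file headers. The submitters' processing notes name TopHat, edgeR, NCBIM37 and mm10 without versions or roles. Not given in the sources used here are cluster calling, collapsing by random bases, treatment of reads that map to several copies and the combining of replicates. The tables hold 0 further columns, and depth is unknown.

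The log2 fold was read as CLIP over input, an assumption, since the column name does not state it. The deposited p-value, one-sided, fell under 0.5 for 98.4%, 98.2% and 97.8% of folds above 0 and 0% of folds below 0 (Rbm38, Puf60 with exon 5, Puf60 without exon 5). The p-value thus tests for folds above 0, which does not tell whether CLIP or input is the numerator. The p-value was missing at 1, 1 and 2 snRNA clusters. Cluster starts are spaced by multiples of 50 nt, at an offset of 0, read as the plus strand, or 35, read as the minus strand. Coordinates are 1-based, and after a shift of 10000 nt only 3, 2 and 3 centres lay in snRNA genes. Pairs needed at least 1 nt of overlap, the same inferred strand and a centre in the gene in at least 1 table. Differences between tables carry no test. The computations used Python 3.11.15, pandas 2.3.3, numpy 2.4.6 and matplotlib 3.10.9 and were tested on simulated data.

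The genes named are every named snRNA gene with a cluster, the enriched cluster of highest fold per class and table, the 5 largest differences in each direction among pairs enriched in a table, and up to 3 genes per list and table. Other genes printed were chosen after their values were seen. The members and the 5 gene lists were chosen with earlier results of these data known. Alternatives covered the threshold, the adjustment, a minimum fold, the rule that ties a cluster to a gene and the matching.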

Additional observations from a re-analysis of the deposited data

How the results depend on the processing

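With all p-values adjusted by Benjamini-Hochberg, the enriched snRNA clusters numbered 5 for Rbm38 and 24 for Puf60 with exon 5 in place of 3 and 12, and 17 for Puf60 without exon 5 in place of 14. A minimum log2 fold of 1 left 0 for Rbm38 and 5 for Puf60 with exon 5, and 13 for Puf60 without exon 5. Counting centres in no other gene body left 2, 3 and 3. An adjusted p under 0.01 gave 2, 11 and 13, and counting any overlap of 1 nt gave 3, 16 and 17. Over pairs enriched in at least 1 table, the isoform difference reversed to -0.20 (18 pairs), and Rbm38 minus Puf60 moved to -2.36 without exon 5 (17 pairs) and -1.73 with exon 5 (15 pairs). This filter keeps pairs by calls on the same folds that are then compared, so these shifts are not separate from the choice of pairs. Of the 17 and 15 pairs with Rbm38, 15 and 12 were called for Puf60 alone. The cause was not tested. An overlap of 50% of both clusters gave 0.28, -1.08 and -1.15. No paired analysis was possible because the deposited tables hold no values per library, which also kept single replicates from being left out. The planned restriction to clusters on the annotated gene's strand was not run, since the reference used here gives no gene strand. How far depth limits these values is unknown.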

Other observations

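Some clusters overlap an snRNA gene with the centre just outside it. There were 13 for Rbm38, 10 for Puf60 with exon 5 and 13 for Puf60 without exon 5, of which 0, 4 and 3 were enriched. The enriched shares of all clusters in the same tables were 51.2%, 39.3% and 36.2%. The count with exon 5 was thus near its background, and the other counts were below theirs. Gm22042, Gm25581 and Gm26244, all 164 to 165 nt long, had log2 folds of 1.78, 2.00 and 1.84 with exon 5 and 2.21, 1.93 and 1.77 without it in the authors' deposited tables, at centres 13.5, 16.5 and 20.5 nt outside the gene. On the inferred strand these lay upstream of the 5′ end. Rnu3b3, the U3 gene with no cluster by its centre, had an overlapping cluster at 0.26 for Rbm38, 0.88 with exon 5 and -1.17 without it in the authors' deposited tables, enriched with exon 5. Gm24311, called with exon 5 alone by the cluster centred in it, had another overlapping cluster centred 22.5 nt outside. That cluster had log2 folds of -1.15 for Rbm38, -1.02 with exon 5 and -0.34 without it in the authors' deposited tables. The order of the isoforms was there the reverse of that in the centred cluster. On the inside of the edge, Rnu7 lay 0.5 nt from it and Snord73b 1.5 nt, with the values given above.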
